A study of Homo sapiens with 12 samples.

Results

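MHC class I molecules carry peptides from inside the cell to its surface, where cytotoxic T cells read them. The heavy chains encoded by HLA-B, HLA-C and HLA-E pair with the light chain beta-2 microglobulin, encoded by B2M. TAP1 and TAP2 form the transporter that brings peptides into the endoplasmic reticulum, and TAPBP encodes tapasin, which holds the empty heavy chain at that transporter. NLRC5 is a transactivator of the class I promoters, and CD274 encodes PD-L1, a surface ligand that inhibits T cells through PD-1. Both arms are known to respond to interferon gamma. These 9 genes were taken from the count table by their Ensembl identifiers, out of 58381 genes in all. They were described in the CD44 WT and CD44 KO cells of 2 triple negative breast cancer lines.

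The lines were Hs578T and MDA-MB-231, with 3 libraries in each of the 4 groups. CD44 is a hyaluronan receptor of the cell surface. All cells, controls included, carried a doxycycline-inducible Cas9 lentivirus, were kept under puromycin and were given doxycycline. CD44 KO cells were transfected with guides against exons 1 and 5 of CD44 and sorted as CD29+ CD44- cells. CD44 WT controls received the transfection reagent alone and were sorted as CD29+ CD44+ cells. Both were therefore sorted populations and not single clones, and all were starved in low serum before RNA was taken. Whether replicates came from separate cultures was not given in the sources used here, so the p-values measure only the spread between these libraries.

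The libraries held between 10257586 and 19725543 counted fragments. CD44 itself separated the labels: its mean level was 507 CPM (counts scaled to library size by TMM, which evens out library composition) in Hs578T CD44 WT and 27.3 CPM in Hs578T CD44 KO. In MDA-MB-231 the means were 362 and 34.2 CPM. VIM, an intermediate filament protein of mesenchymal cells, had a mean of at least 3862 CPM in every group, while the epithelial cadherin gene CDH1 had a mean under 1 CPM. Of the other tumour line markers, the keratin genes KRT8 and KRT18 had means of at least 307 CPM and the matrix gene FN1 of at least 274 CPM in every group. KRT19 and EPCAM, also epithelial, had means of at least 234 and 16.8 CPM in MDA-MB-231 and at most 0.237 CPM in Hs578T, and CDH2 had means of at least 143 CPM in Hs578T and under 1 CPM in MDA-MB-231. The summed level of 8 leukocyte markers lay between 0.6 and 9.39 CPM over the 12 libraries. TYROBP, CD79A, ITGAM and LYZ had means of at most 0.203 CPM in each group. CD53 and CD3E had means of at most 0.52 CPM, PTPRC of at most 3.78 CPM and CSF1R of at most 4.14 CPM.

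The first finding was how unevenly the 9 genes were counted. CD274, NLRC5 and B2M gave from 32 to 1234 fragments in each library. HLA-B gave 32 to 72 fragments in every MDA-MB-231 library and 0 or 1 in every Hs578T library. HLA-C gave 69 fragments over all 12 libraries, HLA-E gave 3, TAPBP gave 2, and TAP1 and TAP2 gave 0. For a count of 0, the floor of 3 fragments corresponds to 0.152 to 0.292 CPM depending on the library, which covers counting error only. Only 4 of the 9 genes (HLA-B, B2M, NLRC5 and CD274) passed the filter of more than 1 CPM in at least 2 libraries. HLA-B passed through its MDA-MB-231 libraries alone.

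**Figure D1:**
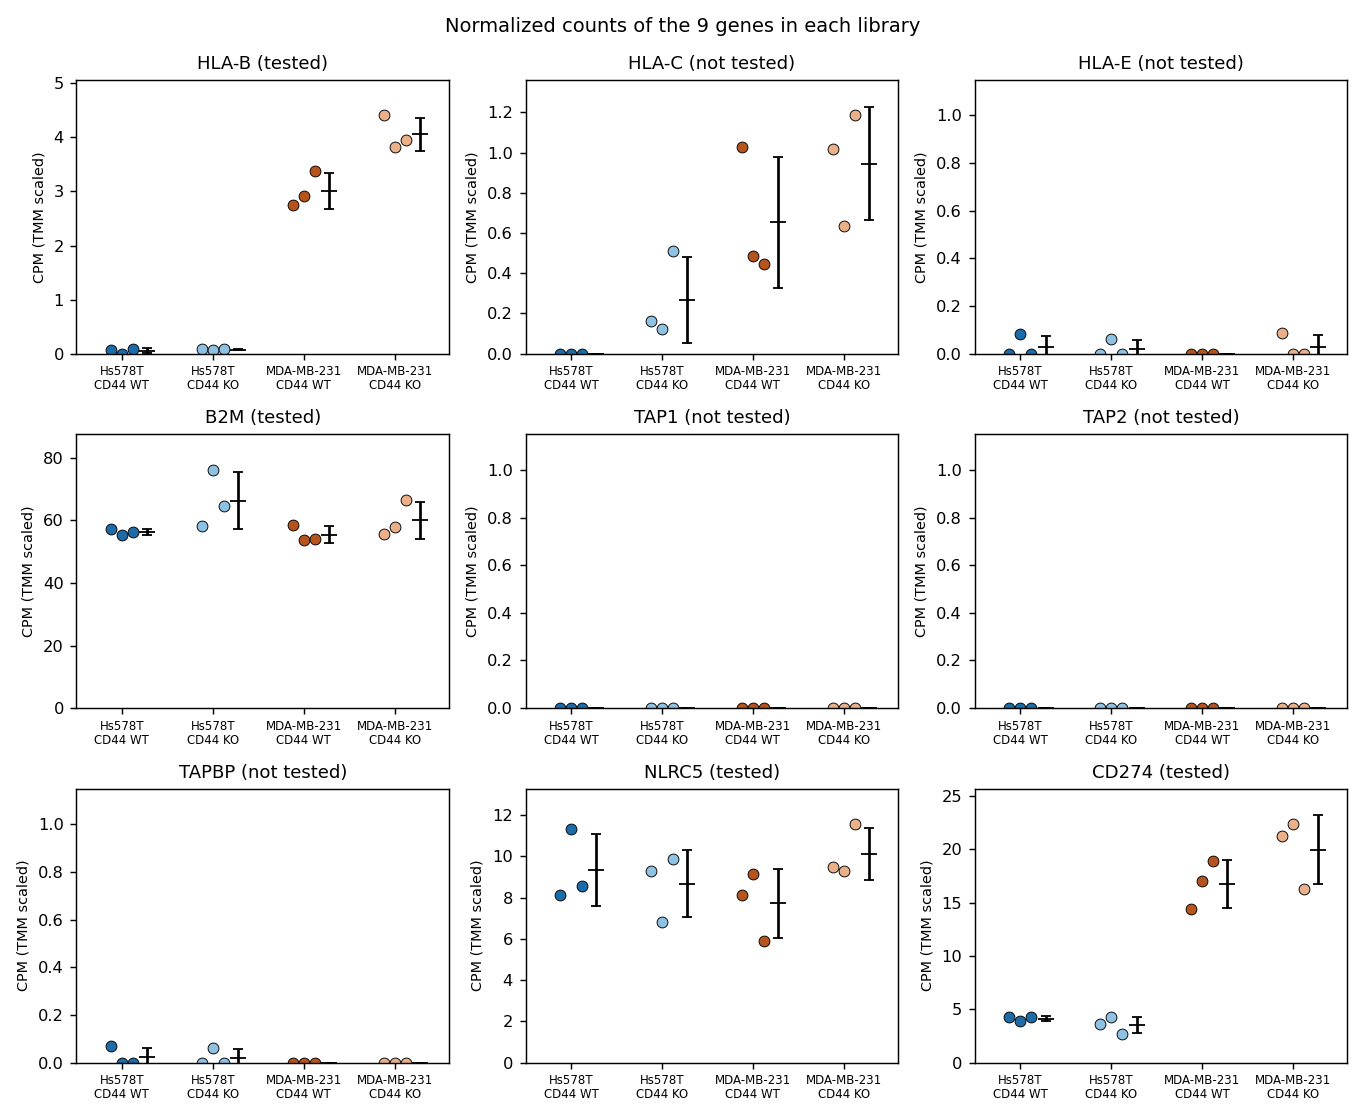
Normalized counts (CPM, TMM scaled, each axis from 0) of the 9 genes in each library of the 4 groups, 3 points a group, with the mean and SD beside them. CD274 and HLA-B separate the lines, B2M and NLRC5 lie at like levels in all 4 groups, and TAP1 and TAP2 are at 0 in all 12 libraries.

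The low counts went together with a property of the genome sequence. The GRCh38 assembly holds alternate contigs, which are second versions of variable regions placed beside the chromosomes, and the authors did not count fragments that aligned to several places. Each gene's exons were therefore split into windows of 50 bases, the read length, and searched for exact copies on the 261 alternate contigs of the hg38 sequence. All windows of TAP1, TAPBP and HLA-E had such a copy, as did 99.1% of those of TAP2, 91.7% of those of B2M, 90.9% of those of HLA-C and 73.2% of those of HLA-B. None of the windows of NLRC5 or CD274 had one. Which contigs the authors' copy of GRCh38 held was not given in the sources used here, so the part of the contigs in the counts was not tested.

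The following coding windows from the hg38 sequence, read 5′ to 3′ on the strand of the gene, show the contrast. They are in capitals where no alternate contig held a copy and in lower case where at least 1 did. The TAP1 window (exon 4, chr6:32850954-32851003, minus strand) was found on 7 alternate contigs. The B2M window (exon 2, chr15:44715523-44715572, plus strand) was found on 1. The CD274 window (exon 4, chr9:5462844-5462893, plus strand) was found on none. For HLA-B, both windows come from exon 3 on the minus strand and overlap, and only one of them (chr6:31356307-31356356) was found on alternate contigs, 7 of them, while the other (chr6:31356347-31356396) was on none. Exons were numbered in the MANE Select transcripts of GENCODE version 44.
TAP1: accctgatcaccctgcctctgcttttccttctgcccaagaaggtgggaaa
B2M: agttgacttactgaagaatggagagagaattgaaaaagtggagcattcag
CD274: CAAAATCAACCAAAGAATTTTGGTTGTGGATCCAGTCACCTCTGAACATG
HLA-B, shared: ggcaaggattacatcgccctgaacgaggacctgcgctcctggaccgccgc
HLA-B, not shared: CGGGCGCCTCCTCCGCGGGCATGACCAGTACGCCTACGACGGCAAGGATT

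Within the coding exons alone, none of the 25 windows of B2M, the 172 of TAP1, the 156 of TAP2, the 102 of TAPBP or the 75 of HLA-E was found once in the primary sequence with no alternate copy. In HLA-B, 28 of 78 coding windows were unique in this sense, and in HLA-C 4 of 77. All 351 coding windows of NLRC5 and all 62 of CD274 were unique. The windows are those of the reference sequence, and the HLA alleles of the lines were not analysed here. Whether the count of B2M covers its whole transcript was not tested.

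The same held for the stretch of chromosome 6 in which 6 of the members lie. Between 28525925 and 33457548 (GRCh38), 170 of 179 protein-coding genes had at least 90% of their windows on alternate contigs. Of these 179 genes, 120 (67%) had 0 fragments in all 12 libraries and 12 (6.7%) were tested. Of the 200 protein-coding genes nearest to it, 100 on each side, 29 (14.5%) had 0 fragments and 112 (56%) were tested. On the other chromosomes, 58.1% of the 513 protein-coding genes with at least 90% of windows shared were at 0, against 15.2% of the 12017 with none. The share at 0 did not rise evenly: it was 5.33% of the 6074 genes with some windows shared but under 50%, and 44.2% of the 113 with 50% to under 90%. Some genes of the stretch were counted although 100% of their windows were shared. The chaperone gene BAG6 gave 185 fragments over the 12 libraries, SKIC2 gave 324 and RXRB gave 283. Which of the genes at 0 the lines express was not tested.

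**Figure D2:**
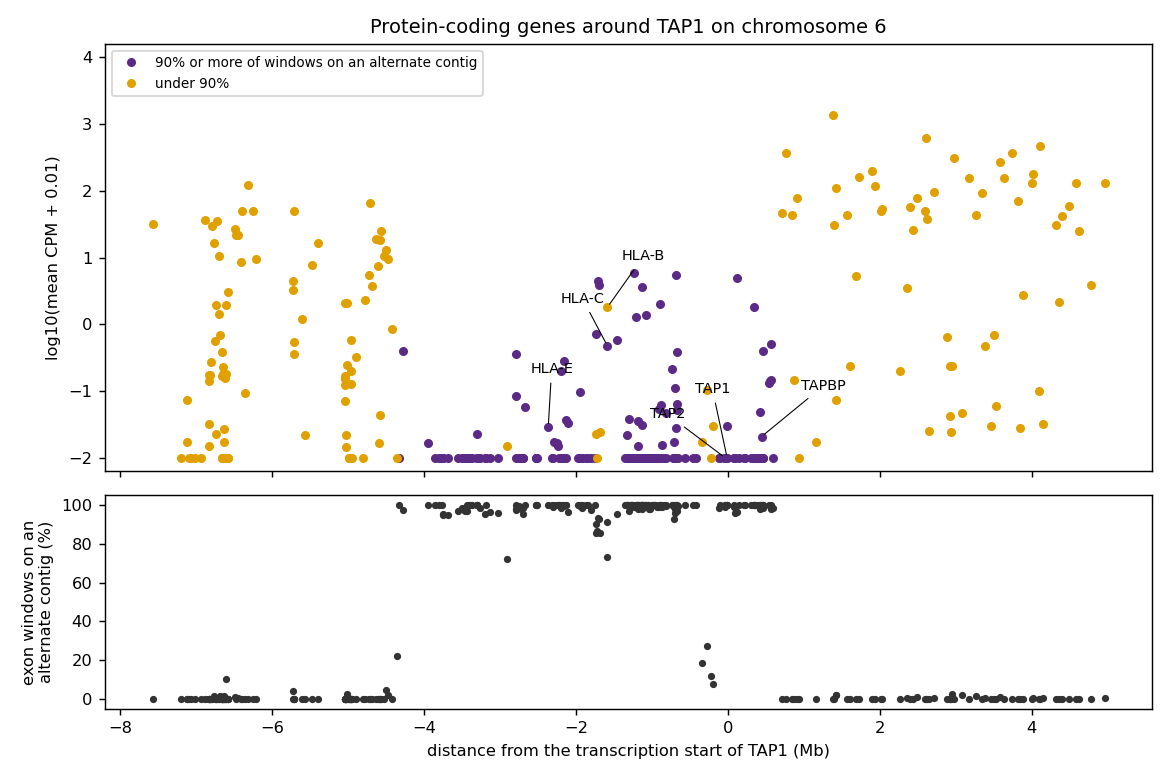
Mean level over the 12 libraries (log10 of CPM + 0.01, upper panel) and share of 50-base exon windows with a copy on an alternate contig (percent, lower panel) for protein-coding genes by distance from TAP1 in Mb. Many genes lie at or near the bottom of the axis where the share rises to 100%, TAP1, TAP2, TAPBP and HLA-E among them. Others with a share of 100% lie higher, such as SKIC2 (1.99 CPM), RXRB (1.79 CPM) and BAG6 (1.26 CPM).

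CD274 differed between the lines and was counted in every library, with 32 to 69 fragments in each Hs578T library. Its level was 4.3, 3.87 and 4.23 CPM in the Hs578T CD44 WT libraries and 14.4, 17 and 18.9 CPM in the MDA-MB-231 CD44 WT libraries. All MDA-MB-231 libraries lay above all Hs578T libraries. The log2 difference between the CD44 WT lines was 2.02 (SE 0.18, 95% interval 1.63 to 2.41, edgeR quasi-likelihood test, adjusted p = 8.96e-08), a 4.05-fold higher level in MDA-MB-231. Of B2M, NLRC5 and CD274, the 3 members that passed the filter within both lines, CD274 was the 1 called between the CD44 WT lines, where 61.5% of all genes tested were called (adjusted p no higher than 0.01). Among the 12459 genes that passed within both lines, 56.3% were called.

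Loss of CD44 was not followed by a called change of CD274 in either line. The Hs578T CD44 KO libraries were at 3.61, 4.25 and 2.73 CPM, which overlapped the CD44 WT libraries. The log2 fold change was -0.21 (95% interval -0.65 to 0.23, adjusted p = 0.563 in edgeR's test). The MDA-MB-231 CD44 KO libraries were at 21.3, 22.4 and 16.3 CPM, again overlapping their controls. There the log2 fold change was 0.26 (95% interval -0.08 to 0.60, adjusted p = 0.358 in edgeR's test). These intervals leave room for a level between 0.637 and 1.17 times that of CD44 WT in Hs578T and between 0.945 and 1.51 times in MDA-MB-231.

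NLRC5, the class I transactivator, was counted at like levels in both lines. It lay at 8.11, 11.4 and 8.55 CPM in Hs578T CD44 WT, and at 8.14, 9.16 and 5.88 CPM in MDA-MB-231 CD44 WT. The ranges overlapped, and the log2 difference between the CD44 WT lines was -0.27 (95% interval -0.70 to 0.16, edgeR, adjusted p = 0.247). In Hs578T CD44 KO it lay at 9.31, 6.84 and 9.89 CPM, a log2 fold change of -0.11 (95% interval -0.53 to 0.31, edgeR, adjusted p = 0.78). In MDA-MB-231 CD44 KO the libraries were at 9.49, 9.27 and 11.6 CPM, each above every CD44 WT library of that line. The log2 fold change there was 0.38 (95% interval -0.05 to 0.80) and did not pass the test (edgeR, adjusted p = 0.282).

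B2M, the light chain shared by all classical class I molecules, had the highest counts of the 9 genes. It was at 57.2, 55.4 and 56.4 CPM in Hs578T CD44 WT and at 58.2, 76.1 and 64.5 CPM in Hs578T CD44 KO. All CD44 KO libraries of Hs578T lay above all CD44 WT libraries, by a log2 fold change of 0.24 (95% interval 0.01 to 0.46). The unadjusted p was 0.0389 and the adjusted p was 0.155 in edgeR's test, so the change was not called. In MDA-MB-231 the CD44 WT libraries were at 58.5, 53.6 and 54.2 CPM and the CD44 KO libraries at 55.5, 57.9 and 66.6 CPM, a log2 fold change of 0.11 (95% interval -0.11 to 0.34, edgeR, adjusted p = 0.57). The CD44 WT lines differed by -0.02 on the log2 scale (95% interval -0.25 to 0.20, edgeR, adjusted p = 0.854). These values describe the counted fragments of B2M, whose coding windows all had a copy on an alternate contig.

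HLA-B was counted in one line and was near 0 in the other. In MDA-MB-231 CD44 WT the libraries gave 32, 36 and 38 fragments, or 2.74, 2.92 and 3.39 CPM, and in Hs578T CD44 WT they gave 1, 0 and 1. Summed over libraries, 106 fragments in MDA-MB-231 stood against 2 in Hs578T, a ratio of 53.2 per counted fragment (exact 95% counting interval 14.4 to 445). Because HLA-B passed the filter only through the line in which it was high, this difference is a description and carries no test. In MDA-MB-231 CD44 KO the counts were 52, 72 and 40, or 4.41, 3.81 and 3.95 CPM, and every CD44 KO library lay above every CD44 WT library. The log2 fold change was 0.42 (95% interval -0.05 to 0.90, edgeR, adjusted p = 0.269). In Hs578T CD44 KO each library gave 1 fragment, so a change there was not detectable at this depth.

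Several other tested genes of the stretch were also counted mainly in one line. Of the 11 other protein-coding genes tested, 7 passed the filter within Hs578T alone, 1 within MDA-MB-231 alone and 3 within both. A gene that passed through one line alone was selected by its level there, so the counts are given as a description. PBX2, which passed within Hs578T alone, overlapped between the lines, with 0 to 13 fragments in Hs578T CD44 WT and 1 to 5 in MDA-MB-231 CD44 WT. TCF19 gave 85 to 91 fragments in the MDA-MB-231 CD44 WT libraries and 0 or 1 in Hs578T. RXRB, a retinoid X receptor gene, gave 40 to 45 in Hs578T CD44 WT and 0 in MDA-MB-231 CD44 WT. DDAH2 gave 69 to 91 in the former and 0 or 1 in the latter. Each of these genes had over 90% of its windows on alternate contigs. Whether the lines' own sequences or their expression set these patterns was not tested.

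**Figure D3:**
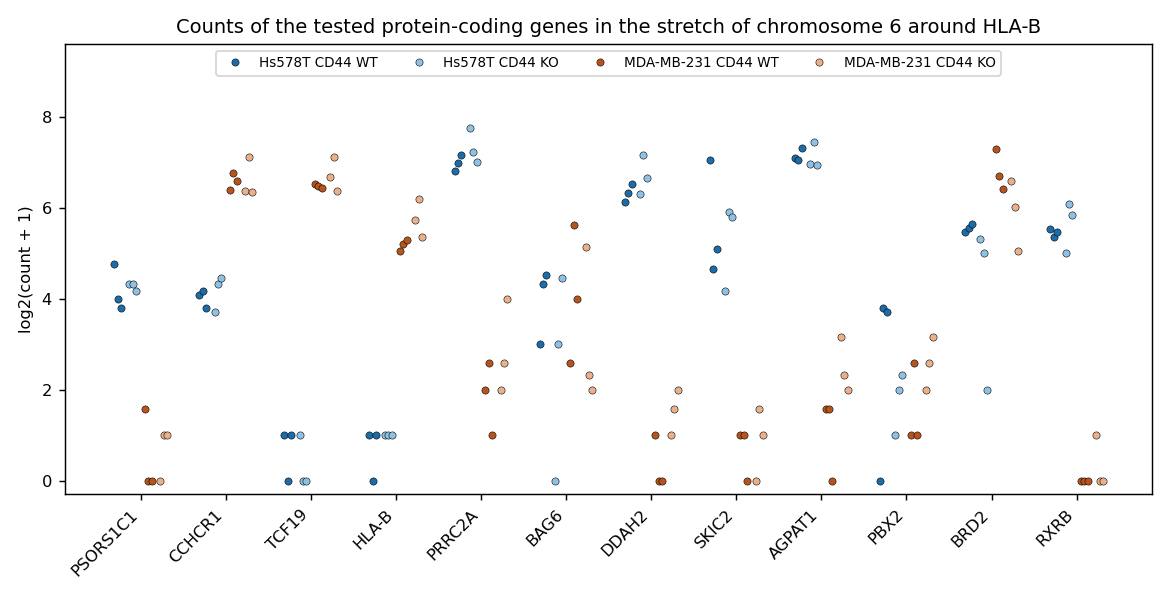
Fragments in each library (log2 of count + 1) for the 12 tested protein-coding genes of the chromosome 6 stretch in order of position, HLA-B included, with colours for the 4 groups. Several genes, such as TCF19 and RXRB, are at 0 or 1 in one line and far higher in the other.

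HLA-C, HLA-E and the peptide loading genes were too weakly counted to be tested. HLA-C gave 12, 6 and 5 fragments in MDA-MB-231 CD44 WT and 12 in each MDA-MB-231 CD44 KO library. In Hs578T it gave 0 in each CD44 WT library and 2, 2 and 6 in CD44 KO. In that line only 1 library was above the floor of 3 fragments, so no fold is given. HLA-E gave a single fragment in 3 libraries of 3 groups and TAPBP a single fragment in 2 Hs578T libraries. TAP1 and TAP2 had no fragment. No fold is given for these either, because every library was at or under the floor.

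Of the members that passed the filter within a line, 0 of 3 were called in Hs578T CD44 KO, where 7.51% of all 15836 genes tested were called, and 0 of 4 in MDA-MB-231 CD44 KO, where 4.62% were. HLA-B is the gene left out for Hs578T. Over all genes that passed the filter within the same line, the shares called were 7.96% in Hs578T and 5.22% in MDA-MB-231. DESeq2 also called 0 in either line, against 9.81% and 7.19% of all genes. At an unadjusted p under 0.05 there was 1 in Hs578T, B2M, and 0 in MDA-MB-231, against 27.4% and 23.4% of all genes. The CD44 KO and CD44 WT libraries did not overlap for 1 of these members in Hs578T and for 2 in MDA-MB-231, against 37.3% and 25.5%. The median log2 fold change was -0.11 over the 3 in Hs578T and 0.32 over the 4 in MDA-MB-231, beside medians of 0.00 and -0.01 over all genes.

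The changes were also compared between the lines directly, and 0 of the 3 members that passed within both lines differed, against 4.12% of all genes tested. Of all genes that passed within both lines, 4.83% differed. DESeq2 called 0 of the 3 members as well, against 7.45% of all genes tested, and 0 had an unadjusted p under 0.05, against 24.6%. The change in Hs578T minus that in MDA-MB-231 was -0.47 for CD274 on the log2 scale (95% interval -1.02 to 0.09, edgeR, adjusted p = 0.292). It was -0.49 for NLRC5 (95% interval -1.09 to 0.11, edgeR, adjusted p = 0.315) and 0.12 for B2M (95% interval -0.19 to 0.44, edgeR, adjusted p = 0.672). The value for HLA-B, 0.02, had an interval of -2.15 to 2.19 and carried no information on a difference.

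**Figure D4:**
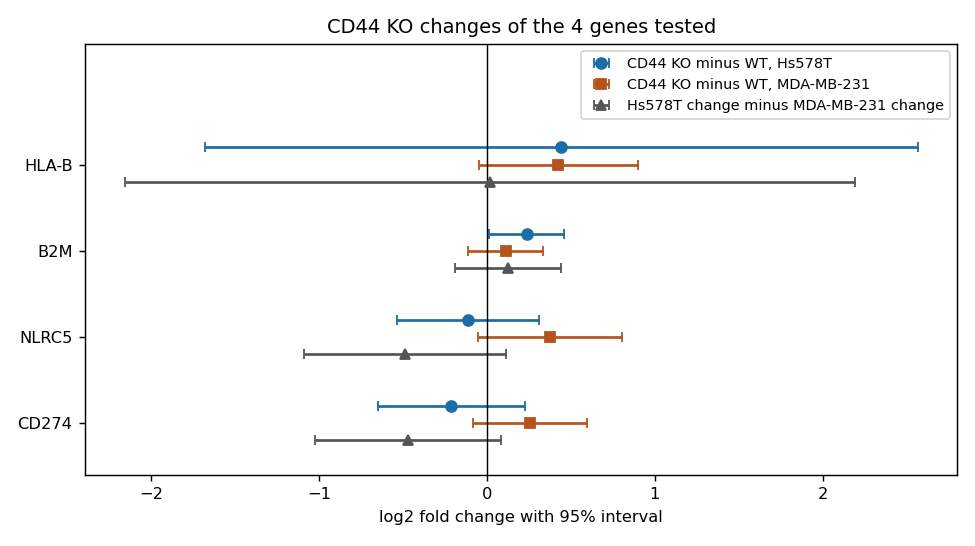
Log2 fold change with its 95% interval for HLA-B, B2M, NLRC5 and CD274 in CD44 KO against CD44 WT of each line and for the difference of both changes. Of the KO changes only that of B2M in Hs578T has an interval above 0 (0.01 to 0.46), and it does not pass the test after adjustment.

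Levels of different genes can be set side by side only per length. Per kilobase of exon, the mean in MDA-MB-231 CD44 WT was 4.08 RPKM for CD274 (SD 0.549, n = 3) and 0.624 RPKM for NLRC5 (SD 0.136, n = 3). In Hs578T CD44 WT the means were 1.01 RPKM (SD 0.057) and 0.754 RPKM (SD 0.142). With this length, CD274 stood above NLRC5 in both lines. The length covers all annotated exons of a gene, with 1001 windows for NLRC5 and 380 for CD274. The exons of the MANE Select transcripts alone held 461 and 332 windows. A level per length of those transcripts was not computed, so the order in Hs578T CD44 WT, where the means lay close, is uncertain. B2M was at 9.25 RPKM in Hs578T CD44 WT and 9.1 RPKM in MDA-MB-231 CD44 WT. HLA-B was at 0.988 RPKM in MDA-MB-231 CD44 WT. Most windows of B2M and HLA-B had a copy on an alternate contig, so their place beside CD274 and NLRC5 is uncertain too.

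The genes whose log2 CPM followed a member most closely over the 12 libraries were named with Pearson's r as a description. The 12 points share their line and library depth. CD274 went with HAUS2, RNF152 and ARF4 (r from 0.993 to 0.994), and HLA-B with PNMA8A, MPP4 and KRR1 (r of 0.998 for each). Both members separated the lines. NLRC5 went with SHKBP1, OXA1L and SLC9A5 (r from 0.812 to 0.831). B2M went with GGNBP2 and RTN3 (r of 0.89 and 0.845) and with an unnamed gene, ENSG00000262691 (r of 0.892). NLRC5 and CD274 themselves had r = -0.10 over the 12 libraries and r = -0.75 after the group means were removed.

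Genes of the same pathways were counted from 4 lists with 79 genes, of which 55 were tested and 15 had at least 50% of their windows on alternate contigs. In Hs578T CD44 KO, 0 of the 55 rose and 3 fell, or 5.45%, while 3.64% of all genes rose and 3.86% fell. In MDA-MB-231 CD44 KO, 1 rose and 0 fell, or 1.82%, while 1.97% of all genes rose and 2.65% fell. Of the 3 that fell, CD70 and CD74 had passed the filter only through Hs578T CD44 WT, the group in which they were high. Their calls are therefore a description, and the share of 5.45% that includes them carries no test. NFKB1 was the other. The 55 had median log2 fold changes of -0.02 and 0.12.

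Antigen processing and loading, with the immunoproteasome activators, the trimming peptidases ERAP1 and ERAP2 and the chaperones of the endoplasmic reticulum, had 12 of 18 genes tested. None was called by edgeR in either line, 3 of 12 had an unadjusted p under 0.05 in each, against 27.4% and 23.4% of all genes, and DESeq2 called 1, ERAP2, in Hs578T, against 9.81%. The immunoproteasome subunits PSMB8 and PSMB9, which lie next to TAP1, gave 0 and 3 fragments in all and had all windows on alternate contigs. The list had a median of 0.15 for Hs578T and 0.10 for MDA-MB-231 on the log2 scale.

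Class I regulators and the interferon signal had all 27 genes tested. NFKB1, a subunit of NF-kappaB, fell in Hs578T CD44 KO from 53.4, 49.4 and 50.4 CPM to 39.4, 39.6 and 37.8 CPM. Its log2 fold change was -0.39 (SE 0.09, edgeR, adjusted p = 0.00685). TRAF3, an adaptor of TNF receptor signalling, rose in MDA-MB-231 CD44 KO from 40.4, 47.7 and 47.9 CPM to 66.7, 62.2 and 63 CPM, a log2 fold change of 0.50 (SE 0.09, edgeR, adjusted p = 0.00364). Neither call was kept in every fit without 1 library: that of NFKB1 was lost without any one of the 6 Hs578T libraries, MDA-MB-231 CD44 WT replicate 3 or MDA-MB-231 CD44 KO replicate 2 or 3 (adjusted p from 0.0102 to 0.0436), and it was also lost with no filter on low counts (edgeR, adjusted p = 0.0239). That of TRAF3 was lost without any one of the 3 MDA-MB-231 CD44 KO libraries (adjusted p from 0.0107 to 0.0172) or with each line fitted alone (edgeR, adjusted p = 0.0285).

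IRF1, a transcription factor of the interferon response, was followed whatever its values. It lay at 38.2, 30.5 and 24.2 CPM in Hs578T CD44 WT and at 41.6, 39.6 and 34.9 CPM in CD44 KO, and the groups overlapped. IRF1 had log2 fold changes of 0.32 in Hs578T and 0.28 in MDA-MB-231, and neither passed the test (edgeR, adjusted p = 0.223 and 0.339).

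Checkpoint and killer cell ligands had 14 of 22 genes tested, and 1 was called, in Hs578T, where 7.51% of all genes were. CD70, the TNF family ligand of CD27, gave 195, 130 and 69 fragments in the Hs578T CD44 WT libraries and between 6 and 14 in CD44 KO. This is a fall from 13.5, 10.7 and 5.84 CPM to 0.481, 0.863 and 0.682 CPM, a log2 fold change of -3.85 (SE 0.40) and 14.4-fold. The groups did not overlap, although the CD44 WT libraries themselves spread widely. CD70 was over 1 CPM in these 3 libraries alone, the group in which it was high. Its call with the filter is therefore a description and carries no test. The call was kept with no filter. MDA-MB-231 had 0 to 2 fragments of CD70 in each library, so no change could be seen there. The second PD-1 ligand, PDCD1LG2, lies beside CD274 on chromosome 9 and was weak, at means of 0.15 CPM in Hs578T CD44 WT and 1.59 CPM in MDA-MB-231 CD44 WT. Its log2 fold changes in CD44 KO were 0.89 and 0.25 and did not pass the test (edgeR, adjusted p = 0.416 and 0.688).

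Class II presentation had 2 of 12 genes tested, and 6 of the 12 had at least 50% of their windows on alternate contigs. CD74, the invariant chain that guides class II molecules, was lower in Hs578T CD44 KO and was counted weakly throughout. It gave 2.15, 2.14 and 0.846 CPM in CD44 WT and 0.321, 0.370 and 0.426 CPM in CD44 KO, a log2 fold change of -2.19 (SE 0.50), with no overlap. These are 67 fragments against 15. CD74 was over 1 CPM in 2 libraries alone, Hs578T CD44 WT replicates 1 and 2, and without either of them it did not pass the filter. Its call with the filter is therefore a description and carries no test. The call was kept with no filter (edgeR, adjusted p = 8.63e-05). It was lost without any one of the 3 Hs578T CD44 KO libraries (adjusted p from 0.0196 to 0.0283) and with the replicate block (edgeR, adjusted p = 0.0124). In MDA-MB-231 the change was 0.85 (edgeR, adjusted p = 0.458).

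**Figure D5:**
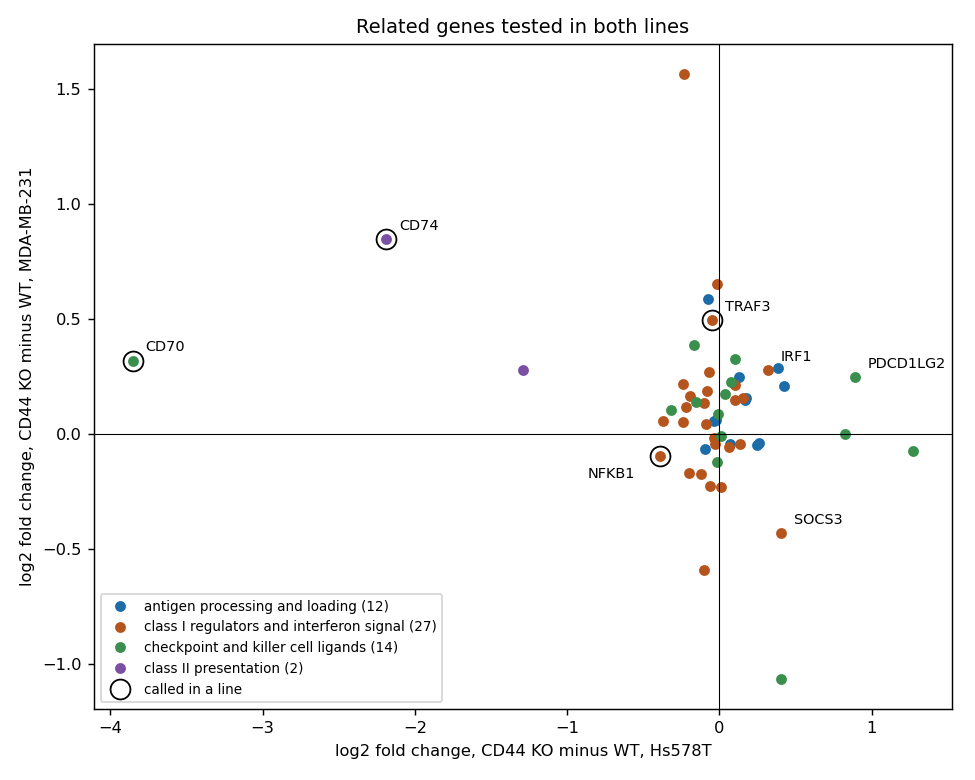
Log2 fold change in CD44 KO for the 55 related genes tested, Hs578T on the horizontal axis and MDA-MB-231 on the vertical axis, coloured by list, with rings around the 4 genes called in a line. CD70 and CD74 lie far to the left (-3.85 and -2.19) and most genes lie near 0 in both lines.

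Of the leukocyte markers, 2 of 8 were tested. PTPRC, which encodes CD45, had 4, 7 and 3 fragments in Hs578T CD44 WT and 52, 39 and 60 in CD44 KO, a log2 fold change of 3.33 (SE 0.44). It too had passed the filter only through the group in which it was high, so its call is a description and carries no test. Of its exon windows, 60.3% had a copy on an alternate contig. The summed level of the 8 markers was 5.33 to 5.96 CPM in Hs578T CD44 WT and 7.68 to 9.39 CPM in CD44 KO, and most of it was PTPRC and CSF1R. CD53, CD79A, ITGAM, LYZ and TYROBP had means of at most 0.201 CPM in Hs578T CD44 KO, and CD3E of 0.323 CPM. CSF1R had means of 4.1 CPM in Hs578T CD44 WT and 4.14 CPM in CD44 KO. In MDA-MB-231 every CD44 KO library lay above every CD44 WT library for CSF1R. Its log2 fold change there was 1.71 and was not called (edgeR, adjusted p = 0.0132). The part of the PTPRC rise in the lower levels of CD70, CD74 and NFKB1 beside it was not tested.

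Neighbours within 1 Mb of each member were examined because genes close together share copy number. Around B2M 20 genes were tested and around HLA-B 9, and 0 were called in either line, where the shares over all genes were 7.51% (Hs578T) and 4.62% (MDA-MB-231). Around CD274, 1 of 15 was called, SLC1A1, which was higher in Hs578T CD44 KO. Around NLRC5, 2 of 30 were called in Hs578T (ADGRG1 and MMP15, both lower) and 1 in MDA-MB-231 (DOK4, lower), counts close to those same shares. These 4 genes were named after their values were seen. Around HLA-B, only 3 of the 9 passed the filter within MDA-MB-231, with a median log2 fold change of -0.14 there, beside -0.01 over all genes. Of the tested genes next to HLA-B and HLA-C, TCF19 had a log2 fold change of 0.08 in MDA-MB-231 (edgeR, adjusted p = 0.866), and PRRC2A gave only 1 to 15 fragments in each library of that line, so no fold is given.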

How the data were processed

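RNA of 12 libraries in 4 groups was sequenced as stranded 50-base pairs. The authors aligned reads with HISAT2 2.1.0 to GRCh38 and deposited whole-number counts from featureCounts 1.6.2 on GENCODE version 28, without normalization. Per the file header, fragments needed a mapping quality of at least 10, and those aligning to several places were not counted. The header name of one MDA-MB-231 CD44 WT column stands in the descriptions of both replicates 2 and 3, so that library was used with its group and no number.

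Genes over 1 CPM in at least 2 libraries and at least 300 nt long (15836; the study's text says under 300 nt) were fitted in R 4.3.3 with edgeR 4.0.16 (TMM, legacy quasi-likelihood, 4 group means) with calls at 0.01 after Benjamini-Hochberg adjustment over all genes tested. Standard errors came from the model's weights and moderated dispersion. Depth, 10257586 to 19725543 fragments, limits weak genes. Windows of 50 bases every 10 bases of exon were matched exactly to hg38. Alternatives were DESeq2 1.42.0, other scaling, filters, thresholds, a replicate block and each library left out. The fit was tested on simulated data. All members were described; related genes were named when called, besides IRF1, PDCD1LG2 and, for each tested member, the 3 most correlated genes. Members and lists were chosen with earlier results of these data known. Some results of these lists are not reported here.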

Additional observations from a re-analysis of the deposited data

Results flagged for a closer look

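The change of SOCS3, a feedback inhibitor of cytokine signalling, differed between the lines by a test of the difference itself. It lay at 13, 14.3 and 13.2 CPM in Hs578T CD44 WT and at 18.2, 17 and 18.4 CPM in CD44 KO, and at 82.6, 69.2 and 77.4 CPM in MDA-MB-231 CD44 WT and 58.6, 60.3 and 50.8 CPM in CD44 KO. The difference of the changes was 0.84 on the log2 scale (SE 0.15, edgeR, adjusted p = 0.00229), with all 3 CD44 KO libraries above CD44 WT in Hs578T and all 3 below in MDA-MB-231. Neither change alone passed the test (edgeR, adjusted p = 0.0233 and 0.0107). SOCS3 was named after its values were seen.

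The change of PTPRC also lay apart between the lines, by 5.66 on the log2 scale (SE 1.14). PTPRC was over 1 CPM in the 3 Hs578T CD44 KO libraries alone, the group in which it was high. This difference is therefore a description and carries no test. PTPRC rose in Hs578T and had 10 fragments in MDA-MB-231 CD44 WT against 2 in CD44 KO, where the change was not called (edgeR, adjusted p = 0.0988).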

How the results depend on the processing

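The 4 tested members had 16 log2 differences, which gave 327 values under the alternatives. Of these, 315 kept direction and side of the threshold, 12 turned sign, and none gained or lost a call. With no filter on low counts, 1 member was called in Hs578T, HLA-C (10 fragments against 0, edgeR, adjusted p = 0.00906). Its CD44 KO libraries held 2, 2 and 6 fragments, with only 1 above the floor of 3. Between the CD44 WT lines 3 were called in place of 2, HLA-C (23 against 0, edgeR, adjusted p = 1.05e-06) beside CD274 and HLA-B. The shares called over all 29625 genes of that fit are not given here, so these counts are a description. Members called in Hs578T, in MDA-MB-231 and for the difference of the changes stayed at 0 with any library left out, and those between the CD44 WT lines at 2. Of those 2, CD274 and HLA-B, the latter passed the filter only through MDA-MB-231, the line in which it was high. Its call is therefore a description and carries no test.

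Related genes called in Hs578T numbered 3 of 55, where 7.51% of all genes were called, and 6 at an adjusted p of at most 0.05. With no filter they numbered 4: NFKB1 was lost (adjusted p = 0.0239) and ERAP1 and ERAP2 were gained. With a library left out they ranged from 1 to 6: 1, CD70, without Hs578T CD44 WT replicate 1 or 2 or any Hs578T CD44 KO library, and 6 without MDA-MB-231 CD44 WT replicate 1. In MDA-MB-231 they numbered 1, and 2 with library size only, 3 with DESeq2, 2 with no filter, 0 with each line fitted alone, 2 without the legacy fit and 4 at an adjusted p of at most 0.05. They ranged from 0 to 1 with a library left out, 0 without any MDA-MB-231 CD44 KO library. Over all genes, 4.62% were called in MDA-MB-231, and 7.19% by DESeq2. The shares over all genes under the other settings are not given here, so those counts are not set against a background. The cause was not tested.

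Signs turned as follows, on the log2 scale. HLA-B in Hs578T was -0.031 without CD44 WT replicate 2, and ranged from there to 0.83 with single libraries left out. The difference of its changes between the lines was -0.125 with the replicate block and ranged from -0.47 to 0.407. B2M between the CD44 WT lines was 0.0192 with the replicate block and ranged from -0.0661 to 0.00303. NLRC5 in Hs578T ranged from -0.209 to 0.0533 (without CD44 WT replicate 2). TRAF3 in Hs578T ranged from -0.103 to 0.00646. CD70 in MDA-MB-231 ranged from -0.261 to 0.767, and PDCD1LG2 there from -0.016 (without CD44 WT replicate 1) to 0.507. The difference of the IRF1 changes ranged from -0.109 to 0.221.

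The replicate numbers of the titles did not pair the samples: correlations of same-numbered libraries' deviations ran from -0.12 to 0.16. The numbers that end the column header names, taken in order, form sets with 1 library of each group. These sets cut across the title numbers. Within the sets the correlations ran from -0.0011 to 0.16, and between sets from -0.17 to 0.12. A fit with these sets as a block was not run, so their part in the results was not tested. With the title's replicate number as a block, which left out the library with no number, 0 members were called in either line, as without it. Related genes called were 2 in Hs578T in place of 3, with CD74 not called (edgeR, adjusted p = 0.0124), and 1 in MDA-MB-231. The shares over all genes with that block are not given here. Counts under about 100 fragments a library limit HLA-B, HLA-C, CD74 and, in Hs578T, CD274, among others.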
